A study of Mus musculus with 24 samples.

Results

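Levels of 10 genes of the amino acid stress response, Asns, Psat1, Phgdh, Shmt2, Sesn2, Atf4, Atf5, Ddit3, Trib3 and Chac1, were examined in sorted mouse colon fibroblasts, among 30748 genes measured on the same 24 microarrays. Asns was picked for its rise in the double knockout, so its differences between IhhKO_ApcKO and the other genotypes are given as a description with no test. The other 9 genes were chosen by name as fellow members of the response, and each gene was read from the brightest probe set annotated to its symbol alone. The arrays covered 3 genotypes, all carrying Villincre-ERT2, an inducible Cre recombinase driven by the promoter of the epithelial gene Villin, and ZsGreen. IhhKO_ApcKO (9 arrays) lacked Ihh, the Hedgehog ligand of the colon epithelium, and Apc, a brake on Wnt signalling. ApcKO (8 arrays) lacked Apc and kept Ihh, and WT (7 arrays) kept both. Since Villin marks epithelium, the fibroblasts are not themselves the cells in which this Cre is known to act. The labels give neither the age of the mice nor the time after induction, and do not state that each array is a separate mouse, so p-values measure the spread between these samples, which may be technical.

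When amino acids run short, or when proteins misfold in the endoplasmic reticulum (ER), kinases phosphorylate the translation factor eIF2, which slows protein synthesis overall while translation of the mRNA of the transcription factor Atf4 increases. Atf4, with partners of the C/EBP family, then switches on genes for amino acid synthesis, uptake and tRNA charging, as well as regulators such as Ddit3, Trib3 and Chac1. Since much of the control of Atf4 lies in translation, arrays of RNA read mainly its transcript and those of its targets. Asns, asparagine synthetase, makes asparagine from aspartate and glutamine and is among the best known of these targets.

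The sequence that joins Asns to this pathway is shown because the C/EBP-ATF response element is the site type to which Atf4 and its partners bind. Its core TGATGNAA was searched on both strands in RefSeq promoter windows of mouse build GRCm38.p6, from 250 bases before to 50 bases after each gene's start. All 10 genes had a window, and 3 of them held the core, as did 4.51% of the 27025 genes with a window. In Asns the match TGATGAAA lay on the gene's own strand at positions -23 to -16, counted from the start at 1. Chac1 held TGATGCAA on the opposite strand at -193 to -186, and Trib3 held TGATGTAA on the opposite strand at 15 to 22, inside the transcript. No match in a window says only that these letters are not there. The 250 bases before the start are given 5′ to 3′ on the gene's strand, with the match in capitals, for Asns at chr6:7693210-7693459 (minus strand) and for Chac1 at chr2:119350992-119351241 (plus strand, where the capitals read as the reverse complement of the core).
Asns: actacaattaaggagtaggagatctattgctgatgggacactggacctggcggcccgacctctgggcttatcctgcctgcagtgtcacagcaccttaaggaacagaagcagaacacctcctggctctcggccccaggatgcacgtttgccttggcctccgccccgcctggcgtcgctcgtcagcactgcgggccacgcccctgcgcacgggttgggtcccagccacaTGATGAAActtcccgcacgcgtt
Chac1: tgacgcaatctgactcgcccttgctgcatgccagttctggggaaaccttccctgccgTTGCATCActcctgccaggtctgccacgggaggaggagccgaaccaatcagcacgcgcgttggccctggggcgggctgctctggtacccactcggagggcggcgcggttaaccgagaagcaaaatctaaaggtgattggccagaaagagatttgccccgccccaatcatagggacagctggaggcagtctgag

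Values are RMA log2 units, a log scale of probe signal. Array medians lay between 4.96 and 5.14. The negative control probe sets centred on 4.65, with their 95th percentile at 8.21, while antigenomic background probe sets had array medians of 2.68 to 3.15. The mean levels of all 10 genes lay above the negative control median, those of Atf4 and Ddit3 also above its 95th percentile, and that of Trib3, the dimmest at 5.67, close to the median gene at 5.604. Pdpn, which encodes the sorting marker gp38, was at 10.70 to 11.08 on all arrays. Ptprc, which encodes CD45, was at 2.82 to 3.21, near the antigenomic probe sets, and the endothelial gene Pecam1 was at 4.99 to 6.51. Epcam, a marker of epithelium that the sort selected against, varied far more, from 4.73 to 8.11. The mean of 16 epithelial markers was 5.67 to 8.47 on IhhKO_ApcKO arrays, 6.35 to 8.36 on ApcKO arrays and 5.998 to 8.03 on WT arrays. In such bulk samples, fewer cells of a type and less RNA per cell cannot be told apart.

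A single array, B9, stood apart from its group. Gli1, a direct target gene of Hedgehog signalling in fibroblasts, was at 7.99 on the IhhKO_ApcKO array B9, at 6.64 to 7.05 on the other 8 IhhKO_ApcKO arrays, at 8.03 to 8.47 on ApcKO arrays and at 7.98 to 8.20 on WT arrays. The differences of the 10 genes are followed by their values without B9, as are the counts and list medians that moved by more than 1.5 times without it. Sample codes begin with a letter that nearly follows genotype, IhhKO_ApcKO arrays carrying C except B9, ApcKO arrays B except A9, and WT arrays A. What the letter stands for is not stated. The digit after it recurred across genotypes and went in part with the epithelial signal. The epithelial mean was lowest in each genotype on the array with digit 3, at 5.674 in IhhKO_ApcKO, 6.346 in ApcKO and 5.998 in WT. It was highest on arrays with different digits, C9 at 8.472 in IhhKO_ApcKO, B8 at 8.363 in ApcKO and A6 at 8.032 in WT. Over all genes, the deviations of 2 arrays of different genotypes from their group means had a median correlation of 0.133 where they shared a digit (20 pairs) and -0.024 where they did not (171 pairs).

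Asns, by its choice, had its highest levels in IhhKO_ApcKO fibroblasts. Its lowest, median and highest values were 6.47, 6.83 and 7.31 in IhhKO_ApcKO, 6.05, 6.49 and 6.76 in ApcKO, and 6.29, 6.40 and 6.57 in WT. Of the 9 IhhKO_ApcKO arrays, 7 lay above every ApcKO array and 8 above every WT array, and the groups overlapped through C5 at 6.47 and C2 at 6.60. The mean was 6.86 ± 0.25 (SD, n = 9) in IhhKO_ApcKO, 6.47 ± 0.25 (SD, n = 8) in ApcKO fibroblasts and 6.41 ± 0.09 (SD, n = 7) in WT. The 7 WT arrays thus lay close together, while single arrays of both knockout groups differed by more than the group means did.

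The Asns mean was 0.38 log2 units (SE 0.10), or 1.31-fold, higher in IhhKO_ApcKO than in ApcKO, and 0.44 (SE 0.10), or 1.36-fold, higher in IhhKO_ApcKO than in WT. Both comparisons share the IhhKO_ApcKO arrays. Among all genes ordered by difference, Asns ranked 90 from the top against ApcKO and 108 against WT. Without B9 the differences were 0.39 and 0.45. ApcKO was 0.059 above WT (SE 0.11), which the limma test did not call (adjusted p = 0.981 over all genes).

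The arrays whose letter differs from the rest of their genotype were A9 and B9. The ApcKO array A9 had the lowest Asns value of the study, 6.05, below every WT array with the same letter. B9, at 6.80, lay above the 7 ApcKO arrays with the letter B, which ran from 6.24 to 6.76. With the letter as a block the Asns difference was 0.27 for IhhKO_ApcKO minus ApcKO, -0.10 for IhhKO_ApcKO minus WT and -0.37 for ApcKO minus WT. These values rest on A9 and B9, the only ApcKO array with the WT letter and the only IhhKO_ApcKO array with the ApcKO letter, so letter and genotype cannot be told apart beyond them.

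**Figure D1:**
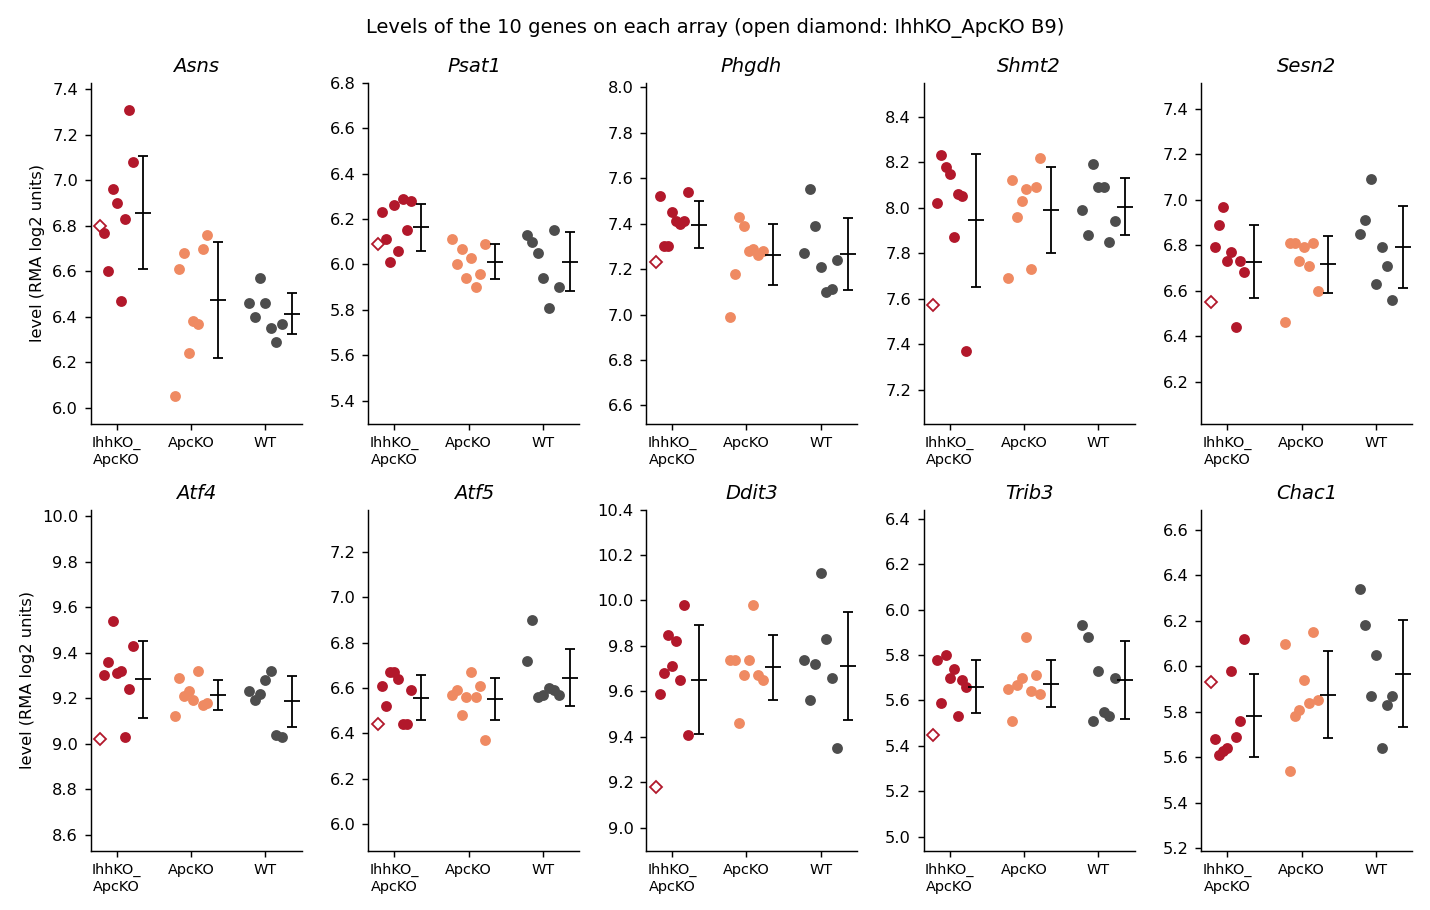
Level of each gene (RMA log2 units) on every array, with IhhKO_ApcKO (9 arrays), ApcKO (8) and WT (7) from left to right and the mean ± SD beside the points; every panel spans the same range of log2 units, and the open diamond is IhhKO_ApcKO B9. Asns reached 7.31 in IhhKO_ApcKO, against at most 6.76 in ApcKO and 6.57 in WT, while the points of the other 9 genes overlap widely between genotypes.

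Asns was not tested between IhhKO_ApcKO and ApcKO, and none of the other 9 genes passed the test there. The test was limma's moderated test on all 24 arrays, with a Benjamini-Hochberg adjusted p under 0.05 over all genes, and 0 of 9 passed, where 14 of all 30748 genes (0.0455%) did (41 without B9, with 0 of 9). At an unadjusted p under 0.05 the count was 2 of 9, Psat1 and Phgdh, beside 4.95% of all genes. Between IhhKO_ApcKO and WT, 0 of 9 passed, beside 25 of all genes (0.0813%; 67 without B9, with 0 of 9), and 1 of 9, Psat1, had an unadjusted p under 0.05 (3 of 9 without B9), beside 7.63% of all genes. Between ApcKO and WT, 0 of all 10 genes passed, beside 0 of all genes (0%), and 0 of 10 had an unadjusted p under 0.05, beside 4.41% of all genes. A missing call does not show equal levels: for IhhKO_ApcKO minus ApcKO the 95% intervals of the 9 genes reached 0.27 at most on the upper side and -0.29 at most on the lower side.

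Psat1 and Phgdh encode consecutive early enzymes of serine synthesis, in which Phgdh oxidises 3-phosphoglycerate and Psat1 transaminates the product. Psat1 ran from 6.01 over a median of 6.15 to 6.29 in IhhKO_ApcKO, from 5.90 over 6.01 to 6.11 in ApcKO, and from 5.81 over 6.05 to 6.15 in WT. Of the 9 IhhKO_ApcKO arrays, 6 lay above every ApcKO array and 4 above every WT array, so the groups overlapped. The difference was 0.15 (SE 0.054) for IhhKO_ApcKO minus ApcKO, with an unadjusted limma p of 0.00852 and an adjusted p of 0.669, and 0.15 (SE 0.056) for IhhKO_ApcKO minus WT, with an adjusted limma p of 0.453. It was 0.16 in both comparisons without B9 (adjusted limma p 0.523 and 0.398).

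Phgdh ran from 7.23 over 7.41 to 7.54 in IhhKO_ApcKO, from 6.99 over 7.28 to 7.43 in ApcKO, and from 7.10 over 7.24 to 7.55 in WT. Of the 9 IhhKO_ApcKO arrays, 8 lay above the ApcKO mean and 3 above every ApcKO array, but 0 lay above every WT array, as WT A2 held the highest value. The difference was 0.13 (SE 0.065) in IhhKO_ApcKO against ApcKO and 0.13 (SE 0.067) against WT (adjusted limma p 0.997 and 0.689). Without B9, which had the lowest Phgdh value of its group, the differences were 0.16 and 0.15, and they were -0.069 and -0.35 with the code letter as a block.

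Shmt2, the mitochondrial enzyme that splits serine into glycine and a one-carbon unit, had the brightest signal of the 4 enzyme genes, a comparison that probe sets do not calibrate. Its values were 7.37, 8.05 and 8.23 (lowest, median, highest) in IhhKO_ApcKO, 7.69, 8.06 and 8.22 in ApcKO, and 7.85, 7.99 and 8.19 in WT. The medians lay close together, and 2 IhhKO_ApcKO arrays, C9 at 7.37 and B9 at 7.57, lay below every other array. The difference was -0.048 (SE 0.10) in IhhKO_ApcKO against ApcKO and -0.060 (SE 0.11) against WT, and -0.0012 and -0.012 without B9.

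Sesn2, a sensor that restrains the growth kinase mTORC1 when leucine is scarce, ran from 6.44 over 6.73 to 6.97 in IhhKO_ApcKO, from 6.46 over 6.76 to 6.81 in ApcKO, and from 6.56 over 6.79 to 7.09 in WT. The ranges overlapped almost entirely, with differences of 0.012 (SE 0.074), -0.066 (SE 0.077) and -0.078 (SE 0.079) for IhhKO_ApcKO minus ApcKO, IhhKO_ApcKO minus WT and ApcKO minus WT. Without B9 the first 2 were 0.034 and -0.044.

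Among the transcription factors, Atf4 ran from 9.02 over 9.31 to 9.54 in IhhKO_ApcKO, from 9.12 over 9.20 to 9.32 in ApcKO, and from 9.03 over 9.22 to 9.32 in WT. In IhhKO_ApcKO 3 arrays lay above every ApcKO array and 2, B9 and C6, below all of them, so that IhhKO_ApcKO spread over more than the range of the other groups. The difference was 0.068 (SE 0.062) in IhhKO_ApcKO against ApcKO and 0.097 (SE 0.065) against WT, and 0.10 and 0.13 without B9 (adjusted limma p 0.999 and 0.634).

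Atf5, a relative of Atf4 with a similar translational control, was at 6.44 to 6.67 in IhhKO_ApcKO, 6.37 to 6.67 in ApcKO and 6.56 to 6.90 in WT, with medians of 6.59 in IhhKO_ApcKO, 6.57 in ApcKO and 6.59 in WT. Its means differed by 0.0045 (SE 0.054) in IhhKO_ApcKO against ApcKO and by -0.089 (SE 0.056) against WT, and by 0.019 and -0.074 without B9. The highest values belonged to WT A2 at 6.90 and WT A1 at 6.72.

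Ddit3, which encodes the factor CHOP of prolonged stress, was the brightest probe set of the 10, at 9.18, 9.68 and 9.98 in IhhKO_ApcKO (lowest, median, highest), 9.46, 9.70 and 9.98 in ApcKO, and 9.35, 9.72 and 10.12 in WT. The genotypes overlapped throughout, with B9 the lowest array. The difference was -0.053 (SE 0.098) in IhhKO_ApcKO against ApcKO and -0.061 (SE 0.10) against WT, and 0.0060 and -0.0016 without B9. A second probe set of Ddit3 followed the first over the arrays (Pearson r 0.937, the same RNA read with other probes) and gave -0.031 and -0.032.

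Trib3, a pseudokinase that feeds back on Atf4, was at 5.45 to 5.80 in IhhKO_ApcKO, 5.51 to 5.88 in ApcKO and 5.51 to 5.93 in WT, with medians of 5.69 in IhhKO_ApcKO, 5.66 in ApcKO and 5.70 in WT. Its differences were -0.013 (SE 0.064) in IhhKO_ApcKO against ApcKO and -0.030 (SE 0.066) against WT, and without B9 they were 0.014 and -0.0031, the first with its sign turned. Chac1, which degrades glutathione, was at 5.61, 5.69 and 6.12 (lowest, median, highest) in IhhKO_ApcKO, 5.54, 5.85 and 6.15 in ApcKO, and 5.64, 5.87 and 6.34 in WT. Chac1 had the lowest differences of the 10 genes, -0.094 (SE 0.093) in IhhKO_ApcKO against ApcKO and -0.19 (SE 0.097) against WT (unadjusted limma p 0.0663, adjusted p 0.689), and -0.11 and -0.20 without B9. The windows of Chac1 and Trib3, like that of Asns, held the response element core, and its part in these differences was not tested.

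**Figure D2:**
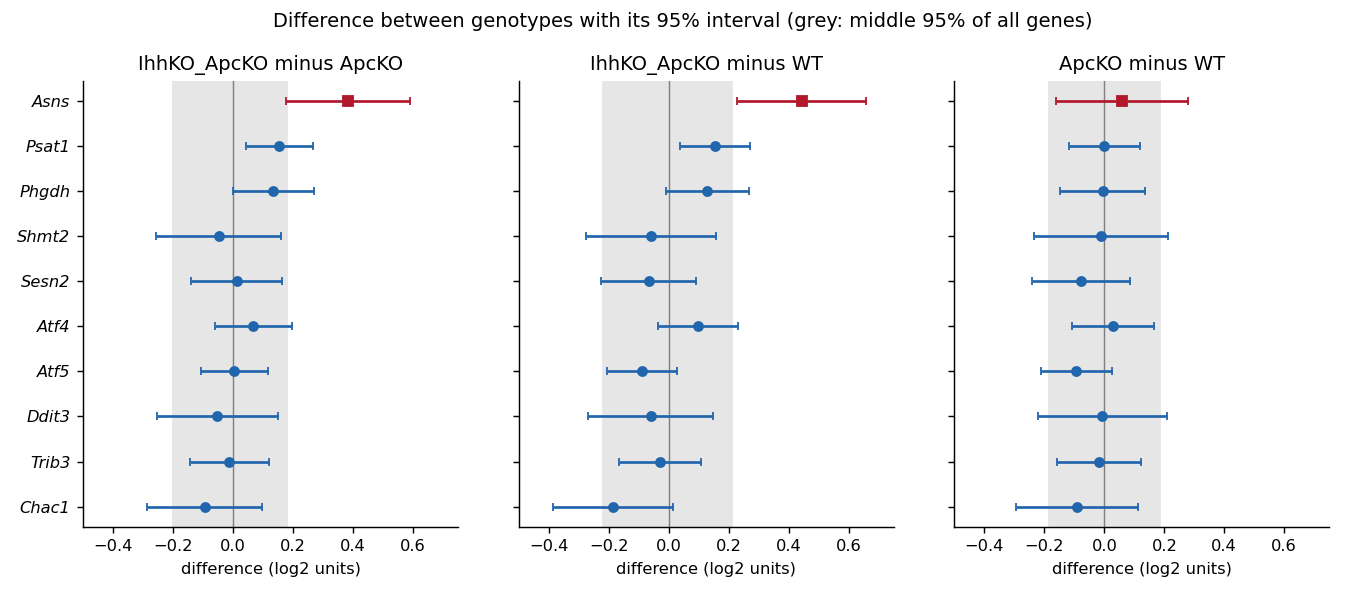
Difference between genotype means in log2 units with its 95% interval from the limma model, for IhhKO_ApcKO minus ApcKO, IhhKO_ApcKO minus WT and ApcKO minus WT; the grey band holds the middle 95% of all genes. Asns (square) lies at 0.38 and 0.44 in the first 2 panels, to the right of the band. It was picked for these differences, so its position and interval there are a description and no test. The points of the other 9 genes lie inside the band in all 3 panels.

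For ApcKO minus WT, the differences of the 10 genes ran from -0.093 for Atf5 to 0.059 for Asns, with a median of -0.0094, beside -0.021 over all genes. For the 9 genes other than Asns the median was 0.0045 for IhhKO_ApcKO minus ApcKO, with 5 of 9 above 0, beside a median of 0.011 over all genes, and 0.019 with 7 of 9 above 0 without B9. For IhhKO_ApcKO minus WT it was -0.060, with 3 of 9 above 0, beside -0.011 over all genes, and -0.0031 without B9.

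A further 9 lists covered the genes around these 10, and 0 of their members passed the test in any of the 3 comparisons, so the values below are given without a call. Without B9 the count was also 0 for both comparisons with IhhKO_ApcKO. The shares over all genes given beside the lists include 10167 genes with a mean below the negative control median. The serine, glycine and one-carbon enzymes (8 measured) had 8 of 8 differences above 0 for IhhKO_ApcKO minus ApcKO, with a median of 0.061, beside 56.6% of all genes above 0. The 3 genes with the smallest p were Mthfd2, a mitochondrial folate enzyme, at 0.13 (SE 0.099), Psph, the last enzyme of serine synthesis, at 0.078 (SE 0.090), and Gldc, of the glycine cleavage system, at 0.076 (SE 0.075). For IhhKO_ApcKO minus WT 7 of 8 lay above 0 (median 0.076), beside 44.9% of all genes. Mthfd1l, named after its values were seen, had the highest difference there, 0.43 (SE 0.14, adjusted limma p 0.348). It was at 0.39 (SE 0.14) for ApcKO minus WT and 0.044 (SE 0.14) for IhhKO_ApcKO minus ApcKO. Among 11 other amino acid enzymes 6 lay above 0 for IhhKO_ApcKO minus ApcKO, with a median of 0.011 (0.0059 without B9). The 3 with the smallest p were the aspartate transaminase Got1 at 0.24 (SE 0.096, adjusted limma p 0.864) and the branched-chain transaminases Bcat1 at 0.13 (SE 0.058) and Bcat2 at 0.068 (SE 0.057). Got1 was at 7.55 ± 0.29 (SD, n = 9) in IhhKO_ApcKO, 7.32 ± 0.16 (SD, n = 8) in ApcKO fibroblasts and 7.35 ± 0.08 (SD, n = 7) in WT.

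The cytosolic aminoacyl-tRNA synthetases, which load amino acids onto tRNA, were listed together with Xpot, the gene of a tRNA exporter. This list had 17 of 19 differences above 0 for IhhKO_ApcKO minus ApcKO (median 0.061), 19 of 19 for IhhKO_ApcKO minus WT (median 0.14) and 18 of 19 for ApcKO minus WT (median 0.080), beside 56.6%, 44.9% and 39.4% of all genes in the same order. Xpot itself was at 0.023, 0.091 and 0.069. At an unadjusted p under 0.05 there were 1, 5 and 2 genes of the list, beside 4.95%, 7.63% and 4.41% of all genes. For IhhKO_ApcKO minus WT the histidine enzyme gene Hars differed by 0.28 (SE 0.073), the isoleucine enzyme gene Iars by 0.36 (SE 0.097) and the tyrosine enzyme gene Yars by 0.15 (SE 0.054), with adjusted limma p of 0.171, 0.201 and 0.424. The leucine enzyme gene Lars, named after its values were seen, had the highest difference of the list in that comparison, 0.36 (SE 0.11, adjusted limma p 0.298), and was at 0.33 (SE 0.12) for ApcKO minus WT and 0.029 (SE 0.11) for IhhKO_ApcKO minus ApcKO. Of the cell cycle genes, 15 of 15 lay above 0 for IhhKO_ApcKO minus WT (median 0.14) and 14 of 15 for ApcKO minus WT (median 0.077). Their mean was 5.73 to 6.48 on IhhKO_ApcKO arrays, 5.74 to 6.21 on ApcKO arrays and 5.76 to 5.92 on WT arrays, and their part in the synthetase values was not tested.

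Amino acid transporters had 8 of 12 differences above 0 for IhhKO_ApcKO minus ApcKO (median 0.037), among them the neutral amino acid carrier Slc43a1 at 0.18 (SE 0.086), the glutamine carrier Slc1a5 at 0.045 (SE 0.052) and the cystine carrier Slc7a11 at 0.11 (SE 0.061), the last on a dim probe set with means of 3.79 in IhhKO_ApcKO and 3.68 in ApcKO. Slc43a1 differed by 0.34 (SE 0.089, adjusted limma p 0.181) for IhhKO_ApcKO minus WT. The sensor kinases and the eIF2 machinery, without the eIF2 alpha gene Eif2s1, which was not analysed here, had 9 of 14 above 0 (median 0.046), with the eIF2B subunit gene Eif2b1 at 0.16 (SE 0.091), Impact, an inhibitor of the amino acid sensor Gcn2, at 0.14 (SE 0.094), and the phosphatase subunit gene Ppp1r15b at 0.10 (SE 0.048). Other stress factors had 10 of 16 above 0 (median 0.038), with the lipoprotein receptor Vldlr at 0.26 (SE 0.13), the stress-induced Nupr1 at 0.15 (SE 0.064) and Cebpg, a C/EBP partner of Atf4, at 0.11 (SE 0.050).

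Of these 9 lists, the one with the highest median for IhhKO_ApcKO minus ApcKO was the ER unfolded protein response, with 14 of 15 differences above 0, a median of 0.13 and 4 genes at an unadjusted p under 0.05, beside 4.95% of all genes. Sdf2l1 and Creld2, both ER proteins induced by misfolding, differed by 0.36 (SE 0.13) and 0.35 (SE 0.13), and the co-chaperone Dnajc3 by 0.16 (SE 0.069), with adjusted limma p of 0.718, 0.712 and 0.889. For IhhKO_ApcKO minus WT the median was 0.059 (0.089 without B9), with 12 of 15 above 0, and for ApcKO minus WT it was -0.041, with 5 of 15 above 0. In these comparisons, in that order, Sdf2l1 was at 0.16 (SE 0.14) and -0.20 (SE 0.14). Creld2 was at 0.17 (SE 0.13) and -0.18 (SE 0.14), and Dnajc3 at 0.17 (SE 0.072) and 0.0064 (SE 0.073). Plasma cell markers, which mark cells rich in ER, had 6 of 6 above 0 for IhhKO_ApcKO minus ApcKO (median 0.12), with means of 5.47 to 5.76 on IhhKO_ApcKO arrays, 5.28 to 5.63 on ApcKO arrays and 5.37 to 5.82 on WT arrays, and their part in these values was not tested. Mitochondrial stress genes had 6 of 8 above 0 (median 0.041), with the proteases Clpp at 0.15 (SE 0.076) and Lonp1 at 0.12 (SE 0.054) and the chaperonin Hspe1 at 0.065 (SE 0.051). The targets of the oxidative stress factor Nrf2 had 0 of 6 above 0 (median -0.037; 3 of 6 and -0.017 without B9), with Srxn1 at -0.10 (SE 0.080), Nqo1 at -0.074 (SE 0.16) and Txnrd1 at -0.039 (SE 0.071).

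**Figure D3:**
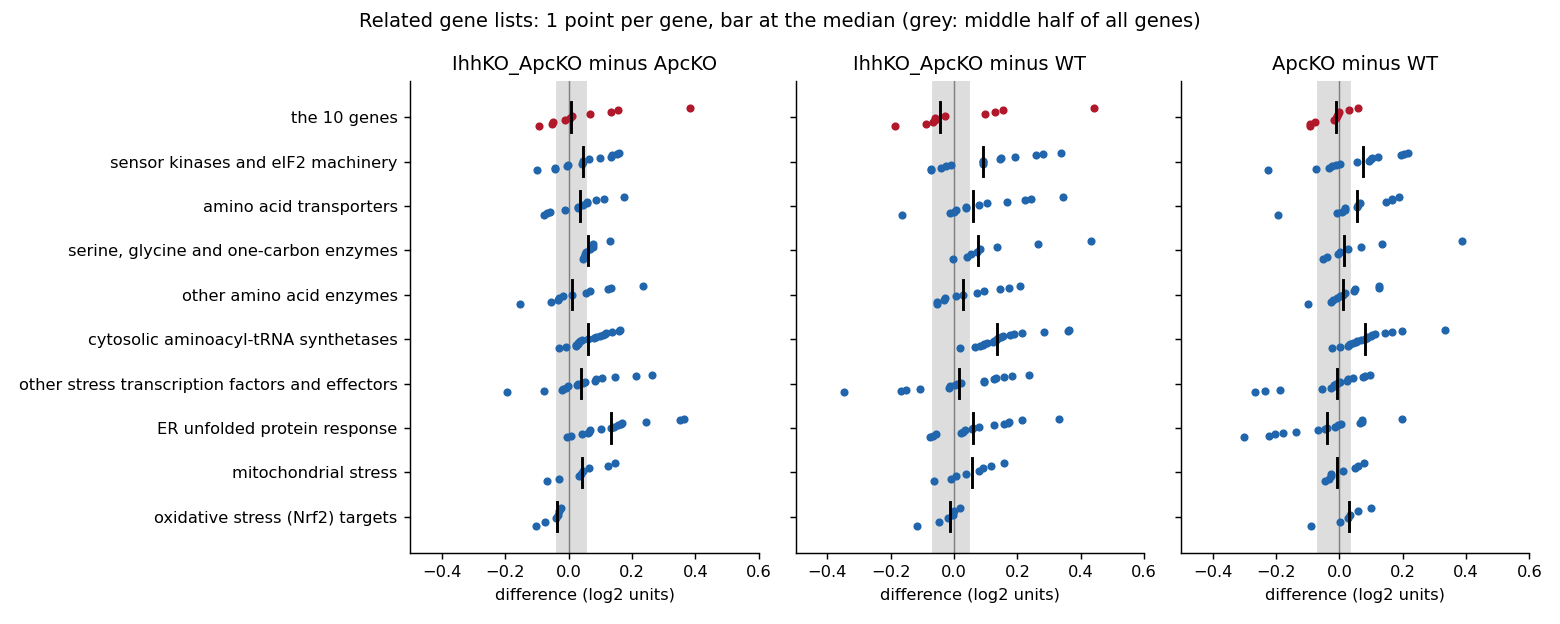
Difference between genotype means (log2 units) for each gene of the 10 genes and of 9 related lists, with a bar at each list's median; the grey band runs from the lower to the upper quartile of all genes. For IhhKO_ApcKO minus ApcKO the ER list has its median at 0.13, right of the band. The medians of the tRNA synthetase list, which includes the tRNA exporter gene Xpot, and of the serine, glycine and one-carbon enzymes, both 0.061, also lie right of it. For IhhKO_ApcKO minus WT all 19 genes of the tRNA synthetase list lie above 0.

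Whether the genes moved together from array to array was asked within genotypes, after each genotype's mean had been subtracted, which removes the differences by which Asns was picked. Over the 24 arrays, Asns had its highest correlation with Phgdh (Pearson r 0.329, permutation p 0.10, Spearman rho 0.262, permutation p 0.23) and its lowest with Atf5 (Pearson r -0.250, permutation p 0.23, Spearman rho -0.218, permutation p 0.33). None of the 9 relations passed after adjustment over the 9 (adjusted two-sided permutation p at least 0.89 for r and 0.78 for rho). Asns and Atf4, the factor known to activate it, had an r of 0.127 and a rho of 0.066 (permutation p 0.60 and 0.76), and without the 2 arrays farthest from the Asns median, ApcKO A9 and IhhKO_ApcKO C7, r was 0.116. With the code digit removed along with genotype, r was 0.400 for Atf4, 0.362 for Phgdh and -0.274 for Atf5. Without the same arrays r was 0.184 with Phgdh and -0.157 with Atf5. Within single genotypes, Asns and Shmt2 had an r of -0.133 in IhhKO_ApcKO, 0.712 in ApcKO and 0.759 in WT, and the difference between these was not tested. Over the 24 arrays their r was 0.209, and it was 0.048 without A9 and C7 and -0.105 with the code digit also removed.

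The 36 relations among the other 9 genes were computed after the first results were seen. Atf5 and Trib3 varied together (r 0.673, permutation p 0.00056, adjusted 0.020; rho 0.684, permutation p 0.00048, adjusted 0.017), with an r of 0.765 in IhhKO_ApcKO, 0.460 in ApcKO and 0.719 in WT, and of 0.664 without WT A2 and ApcKO B8. Atf4 and Sesn2 passed by r (0.643, permutation p 0.0017, adjusted 0.031) but not by rho (0.413, permutation p 0.058, adjusted 0.32), and r was 0.497 without B9 and C6, the arrays farthest from the Atf4 median. Chac1 and Shmt2 ran against each other by r (-0.547, permutation p 0.0041, adjusted 0.049) but did not pass by rho (-0.531, permutation p 0.0088, adjusted 0.16), and r was -0.933 in IhhKO_ApcKO, -0.303 in ApcKO and -0.230 in WT. Without WT A1 and IhhKO_ApcKO C9 r was -0.474. The IhhKO_ApcKO arrays with the lowest Shmt2, C9 at 7.37 and B9 at 7.57, had Chac1 at 6.12 and 5.93. With the code digit removed along with genotype, as a description, r was 0.680 for Atf5 with Trib3, 0.363 for Atf4 with Sesn2 and -0.421 for Chac1 with Shmt2. The permutations were within genotype and took no account of the digit. The other 33 relations did not pass, among them Atf4 with Ddit3 at an r of 0.508 (permutation p 0.027, adjusted 0.24) and a rho of 0.510 (permutation p 0.018, adjusted 0.22).

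**Figure D4:**
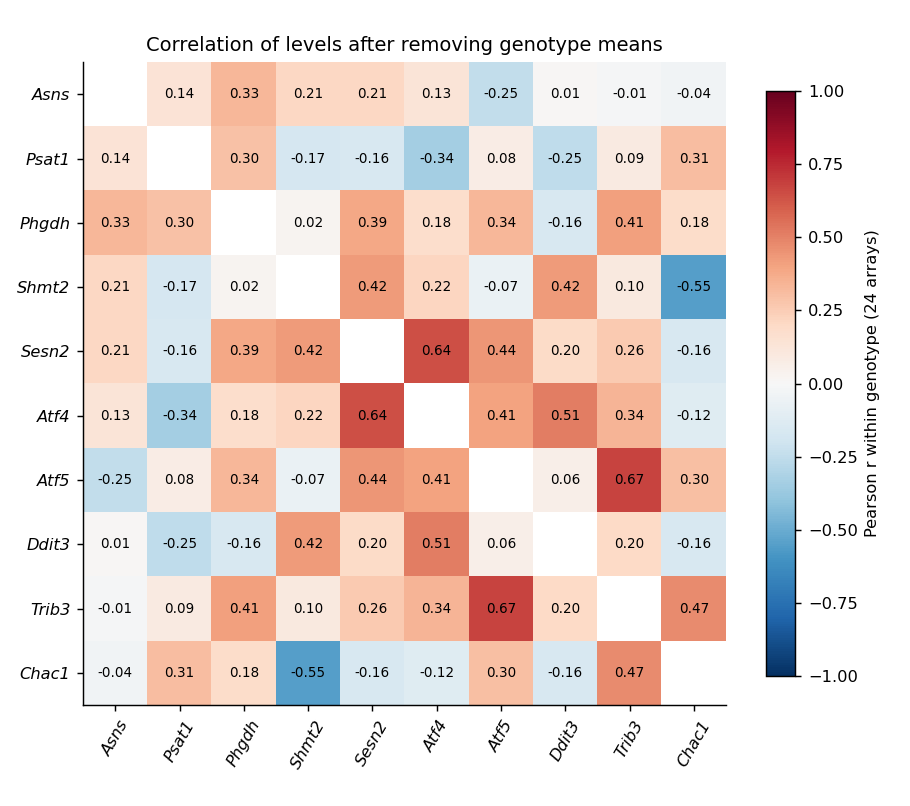
Pearson r between the levels of each pair of the 10 genes over 24 arrays after genotype means were removed, red above 0 and blue below. The darkest cells are Atf5 with Trib3 at 0.67, Atf4 with Sesn2 at 0.64 and Chac1 with Shmt2 at -0.55, and the Asns row holds no value above 0.33.

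The levels were also set against marker lists on the same arrays, in 50 relations of the 10 genes with 5 list means, again after the first results were seen. Chac1 followed the mean of 14 leukocyte markers (r 0.675, permutation p 0.00028, adjusted 0.014; rho 0.719, permutation p 0.00020, adjusted 0.010; r 0.595 without B9 and C9), a mean of only 5.02 to 5.39 on IhhKO_ApcKO arrays, 5.01 to 5.21 on ApcKO arrays and 4.94 to 5.21 on WT arrays. Sesn2 followed the mean of the immediate early and dissociation genes, which rise when tissue is handled (r 0.655, permutation p 0.0011, adjusted 0.029; rho 0.702, permutation p 0.00041, adjusted 0.010), with an r of 0.875 in IhhKO_ApcKO, 0.875 in ApcKO and 0.235 in WT. Without WT A5 and ApcKO A9 r was 0.666. With the digit removed as well, r was 0.521 for Chac1 with the leukocyte mean and 0.368 for Sesn2 with the immediate early mean. The other 48 relations did not pass.

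Asns had its highest such correlation with the cell cycle mean (r 0.500, permutation p 0.038, adjusted 0.21; rho 0.453, permutation p 0.050, adjusted 0.23), with an r of 0.609 in IhhKO_ApcKO, 0.445 in ApcKO and -0.323 in WT, and of 0.387 without B9 and C7. After removal of the code digit as well, as a description, the epithelial mean had the higher r with Asns. It was 0.587 (0.224 with genotype alone removed), beside 0.534 for the cell cycle mean. IhhKO_ApcKO C7, the array with the highest Asns value, also had the highest cell cycle mean, 6.48. With the cell cycle mean as a covariate, the Asns difference was 0.37 in IhhKO_ApcKO against ApcKO and 0.34 against WT, and with the epithelial mean as a covariate it was 0.40 and 0.43. The female-linked transcript Xist was above 9 on 6 of 9 IhhKO_ApcKO arrays, 3 of 8 ApcKO arrays and 3 of 7 WT arrays, and with its level as a covariate the Asns difference was 0.37 and 0.43.

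**Figure D5:**
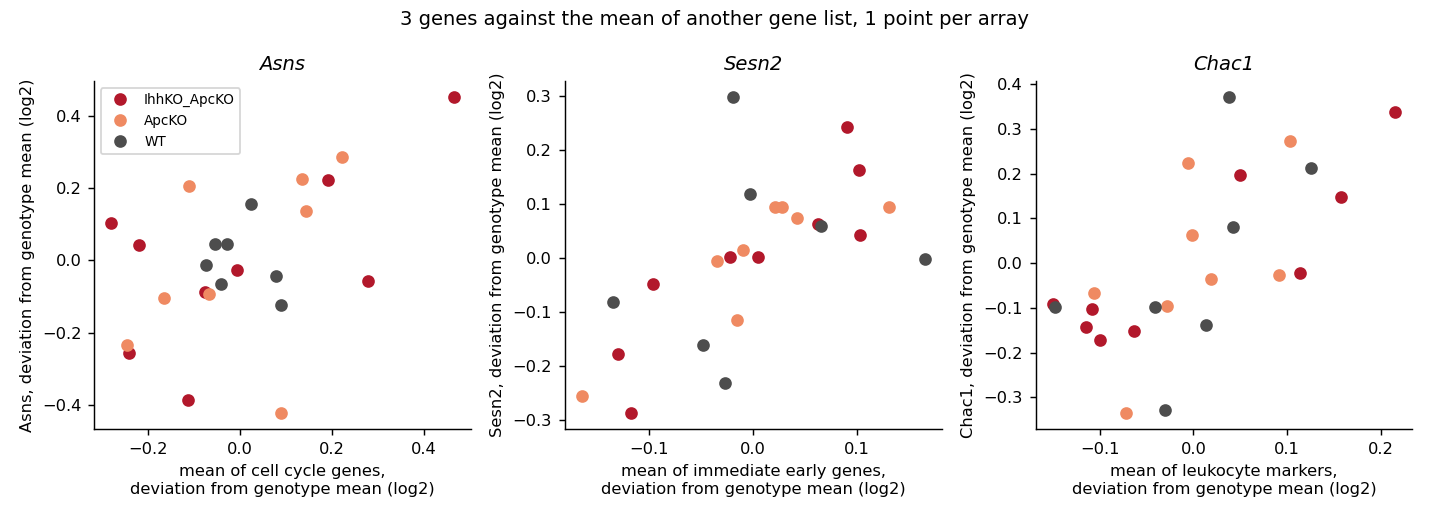
Level of Asns, Sesn2 and Chac1 against the mean of the cell cycle genes, the immediate early genes and the leukocyte markers, each as the deviation from its genotype mean in log2 units, 1 point per array. Sesn2 and Chac1 increase along their list mean (r 0.655 and 0.675), and the Asns points scatter more widely (r 0.500), with IhhKO_ApcKO C7 at the upper right.

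Among the 15373 genes brighter than the median gene, those most like Asns within genotypes were Gm5812 (r 0.830), Fbl, the fibrillarin that methylates ribosomal RNA in the nucleolus (0.809), the mitochondrial carrier Slc25a39 (0.794), the ribosome assembly factor Brix1 (0.712), Tmem183a (0.708) and Opa3 (0.705), each as a description over 24 arrays. Gm5812 and Fbl had an r of 0.974 with each other, so they are close to 1 measurement. The lowest values were those of Lmod1, an actin-filament protein of smooth muscle (-0.748), BC039771 (-0.740) and Tmtc1 (-0.706). With the cell cycle mean, the genes most like Asns had an r from 0.091 for Gm5812 to 0.471 for Tmem183a. Lmod1 had -0.551, BC039771 -0.606 and Tmtc1 -0.336. Of the other 9 genes of the response, Phgdh came closest, with a higher r with Asns than 91.0% of the 15373 genes, while Atf4 exceeded 69.8% and Trib3 46.8% of them. Fbl was at 9.60 ± 0.18 (SD, n = 9) in IhhKO_ApcKO, 9.45 ± 0.14 (SD, n = 8) in ApcKO fibroblasts and 9.33 ± 0.15 (SD, n = 7) in WT, and Slc25a39 at 7.72 ± 0.09 in IhhKO_ApcKO, 7.70 ± 0.09 in ApcKO and 7.73 ± 0.05 in WT.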

How the data were processed

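Total RNA of the sorted fibroblasts was amplified, labelled and hybridised to Affymetrix mouse transcriptome arrays (MTA 1.0), per the labels' protocols. The deposited table holds 1 log2 value per probe set and array, made by the authors with RMA per the submitters' processing notes, a method of background correction, quantile normalization and probe set summary that hides a shift shared by most genes. The software version is not given in the sources used here. It has 72688 probe sets and 24 array columns, and 0 columns lacked a sample. Of 65956 transcript clusters beside 6732 control probe sets, 31221 carried 1 gene symbol, 33206 carried none in the annotation used and 1529 carried several and stayed unnamed. Symbols of 827 were updated through the Entrez identifier, and the brightest probe set stood for each of 364 genes with more than 1, which gave 30748 genes. No 2 arrays were identical. Precision is limited by the number of arrays.

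Genotypes, taken from the sample titles, were compared in R 4.3.3 with limma 3.58.1 (a linear model per gene, then eBayes without trend or robust fitting), with all 24 arrays in 1 model and Benjamini-Hochberg adjustment over all genes, at a threshold of 0.05. Correlations within genotypes used 100000 two-sided permutations of arrays within genotype in Python 3.11.15 with numpy 2.4.6. Both steps were tested on simulated data. The genes named are the 10 members, up to 3 genes of each pathway list with the smallest p for IhhKO_ApcKO minus ApcKO and any that passed in any comparison (0 did), the 6 genes with the highest and 3 with the lowest r with Asns among genes brighter than the median, and the sorting markers. Gli1, Xist, Lars and Mthfd1l were named after their values were seen. The members and lists were chosen with earlier results of these data known. Alternatives were centring, a filter on dim genes, the mean of probe sets, a trended robust prior, array weights, 2 groups alone, code letter or digit as a block, covariates, and each array left out.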

Additional observations from a re-analysis of the deposited data

How the results depend on the processing

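The genes of the response other than Asns did not pass the test in any comparison under any of the 36 alternatives. Asns was tested only for ApcKO minus WT, and it did not pass there. The counts over all genes moved more. For IhhKO_ApcKO minus ApcKO they were 8 after centring, 65 with array weights, 51 with the code letter as a block and 8 to 41 with 1 array left out (41 without B9), beside 14. For IhhKO_ApcKO minus WT they were 16 after centring, 45 with array weights, 7 with 2 groups alone, 82 with the letter, 14 with the digit and 12 to 67 with 1 array left out (67 without B9), beside 25. For ApcKO minus WT the count was 113 with the letter, beside 0. The Asns difference stayed between 0.31 and 0.43 for IhhKO_ApcKO minus ApcKO and between 0.34 and 0.49 for IhhKO_ApcKO minus WT under the alternatives other than the letter.

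Under some settings the sign of a difference turned, and the cause was not tested. The Asns difference for IhhKO_ApcKO minus WT, at 0.44 and chosen for its size, was the only one of these that was not tested, and none of the others was past the threshold. With the letter as a block, for IhhKO_ApcKO minus ApcKO, Atf4 was at -0.21, Atf5 -0.11, Chac1 0.087, Phgdh -0.069 and Sesn2 -0.20. For IhhKO_ApcKO minus WT, Asns was at -0.10, Atf4 -0.27, Chac1 0.22 and Phgdh -0.35. For ApcKO minus WT, Asns was at -0.37, Atf4 -0.064, Ddit3 0.029, Chac1 0.13 and Psat1 0.097. With the digit as a block, Trib3 was at 0.014 and Shmt2 at 0.017 for IhhKO_ApcKO minus ApcKO, Shmt2 at 0.058 for IhhKO_ApcKO minus WT, and Ddit3 at 0.0011, Psat1 at 0.016 and Shmt2 at 0.040 for ApcKO minus WT. With array weights, Sesn2 was at -0.011 for IhhKO_ApcKO minus ApcKO, Shmt2 at 0.0099 for IhhKO_ApcKO minus WT, and Phgdh at 0.035 and Shmt2 at 0.015 for ApcKO minus WT. With the epithelial mean as a covariate, Atf5 was at -0.0090 and Sesn2 at -0.020 for IhhKO_ApcKO minus ApcKO, and Ddit3 at 0.020, Trib3 at 0.011, Phgdh at 0.023 and Shmt2 at 0.058 for ApcKO minus WT. With the immediate early mean, Atf5 was at -0.013 and Sesn2 at -0.044 for IhhKO_ApcKO minus ApcKO, and Atf4 at -0.0022 and Psat1 at 0.023 for ApcKO minus WT. With the cell cycle mean, Trib3 was at 0.011 and Shmt2 at 0.0052 for IhhKO_ApcKO minus WT, and Asns at -0.031, Ddit3 at 0.029, Trib3 at 0.018, Phgdh at 0.015 and Shmt2 at 0.044 for ApcKO minus WT. These last 2 covariates were chosen after seeing the data. For ApcKO minus WT, centring gave 0.019 for Ddit3, 0.0091 for Trib3, 0.026 for Psat1, 0.021 for Phgdh and 0.015 for Shmt2, and Xist as a covariate gave 0.0020 for Ddit3, 0.0024 for Psat1 and 0.0061 for Shmt2.

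With 1 array left out, the differences for IhhKO_ApcKO minus ApcKO ran from -0.021 to 0.022 for Atf5, from -0.094 to 0.0060 for Ddit3, from -0.035 to 0.017 for Trib3, from -0.091 to 0.023 for Shmt2 and from -0.024 to 0.048 for Sesn2. For IhhKO_ApcKO minus WT they ran from -0.12 to 0.0075 for Ddit3, from -0.060 to 0.010 for Trib3 and from -0.095 to 0.012 for Shmt2. For ApcKO minus WT they ran from -0.068 to 0.061 for Ddit3, from -0.047 to 0.023 for Trib3, from -0.035 to 0.023 for Psat1, from -0.033 to 0.042 for Phgdh and from -0.044 to 0.032 for Shmt2. Of the correlations with Asns, Spearman's rho was -0.094 for Ddit3, 0.055 for Trib3 and 0.103 for Chac1, r of Trib3 was 0.064 with the epithelial mean and 0.185 with the cell cycle mean regressed out, and with 1 array left out r ran from -0.197 to 0.096 for Ddit3, from -0.054 to 0.055 for Trib3 and from -0.144 to 0.092 for Chac1. Of the 20 pairs of arrays that share a code digit across genotypes, 12 had a correlation over 0.1, as did 44 of the 171 pairs with different digits. Since not every pair did, the digit was kept as an alternative.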
